A study of Mus musculus with 6 samples.

Results

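The genes examined here encode 10 cell surface proteins by which leukocytes hold on to other cells: Icam1, Vcam1, Icam2, Madcam1, Selp, Sele, Alcam, Cd44, Cd47 and F11r. They were found by gene symbol in the count files, where each symbol belonged to 1 identifier, giving 10 of 46603 identifiers. The study profiled cultured enteric glial cells (EGCs), which in the body accompany the neurons of the gut wall, by bulk sequencing of poly(A) RNA to learn what they express at rest and when activated. All cultures were started from whole E14.5 intestines of C57BL/6J mice, so that every cell type of the embryonic gut could enter them, were grown as floating neurospheres with EGF and FGF, and were then spread on coated plates in serum. The 3 control libraries carry the treatment label NIL and the 3 LPS libraries come from cells given lipopolysaccharide, a bacterial cell wall component sensed by Toll-like receptor signalling, at 100 ng/ml for 12 h. The labels do not say whether the numbered replicates were separate cultures or litters, so the p-values below measure the spread between these libraries only, which may be technical.

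Leukocytes leave the blood in steps. Selectins (Selp, Sele) catch flowing cells by their sugar-bearing ligands, immunoglobulin superfamily ligands (Icam1, Icam2, Vcam1, Madcam1) then bind leukocyte integrins and stop them, and junctional molecules such as F11r take part in the passage between cells. Outside vessels the same integrin ligands, together with the hyaluronan receptor CD44, the CD6 ligand ALCAM and CD47, which binds SIRPα on macrophages and restrains phagocytosis, let tissue cells and macrophages touch each other. Icam1, Vcam1 and Sele are textbook targets of NF-κB, whereas Icam2 is known as a constitutive endothelial gene.

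The libraries held from 18775316 to 23664312 counts. Levels are CPM, the counts scaled to 1000000 per library, on library sizes corrected with TMM factors, and 3 counts, the detection floor used here, correspond to 0.124 to 0.167 CPM, a floor that covers counting error only. Of 15226 genes tested with the edgeR quasi-likelihood test, 1384 were called higher in LPS and 1022 lower at an adjusted p under 0.05, with a median log2 fold change of -0.02. That median was -0.12 with upper-quartile factors, which gave 1050 higher and 1589 lower calls, and -0.18 with library size alone, which gave 986 and 2054. All 8 genes of a list used to check that LPS acted were called higher, with a median log2 fold change of 3.28. The cultures were mixed: 9 of 10 glial markers were above 3 counts in every library, but so were 11 of 12 macrophage markers, 7 of 10 endothelial, all 7 mesenchymal, all 8 smooth muscle and all 6 mesothelial markers, while all 6 lymphocyte markers were at or under the floor in every library and Cd3e and Cd3d had no count. The smooth muscle markers moved with LPS: 7 of 8 were called lower, and their sum was 2295 to 2541 CPM in the controls and 642.7 to 930.6 CPM in LPS. The mesenchymal sum was 15250 to 15890 CPM in the controls and 14820 to 15450 CPM in LPS. Of the 7 mesenchymal markers, Dcn and Pdgfra were called higher (log2 fold changes 0.90 and 0.50), and the replicate block called 2 higher and 2 lower. The mesothelial sum was 84.1 to 124.0 CPM in the controls and 40.3 to 64.2 CPM in LPS, with 2 of 6 markers called lower (5 with the replicate block). Of 9 glial markers tested, S100b and Cdh19 were called lower (log2 fold changes -1.91 and -0.66) and Fabp7 higher (1.29). The part of these cells in the adhesion results was not tested. The libraries numbered 3 stood apart in both groups, each of the 12 macrophage markers being highest there. Summed over the 12 macrophage markers, control replicates 1 and 2 were at 3920 and 5039 CPM and LPS replicates 1 and 2 at 3991 and 5184 CPM, against 11770 CPM in control replicate 3 and 18950 CPM in LPS replicate 3. Lyz2 makes up most of this sum (2888 CPM of it in control replicate 1 and 11480 CPM in LPS replicate 3), and single markers went in opposite directions: Adgre1 was called higher in LPS (log2 fold change 2.78), Mrc1, at -3.08 on the same scale, did not pass the test, and the replicate block called 5 of the markers higher and 4 lower. In bulk RNA, fewer cells of a type and less RNA per cell cannot be told apart.

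Under LPS most of the adhesion genes were called higher, Alcam was called lower, and the junctional gene F11r overlapped between the groups. Of the 10 genes, 9 passed the filter on low counts, 6 were called higher (Icam1, Madcam1, Selp, Sele, Cd44 and Cd47) and 1 lower (Alcam), where 9.09% of all tested genes were called higher and 6.71% lower. Madcam1 and Selp passed the filter only through their LPS libraries, since no control library reached 10 counts, and Sele reached 10 counts in 2 of 3 controls, so for Madcam1 and Selp passing the filter already implied a difference. With a filter that asks for 10 counts in every library, which 6 of these genes met, 3 were called higher and 1 lower, against 8.71% and 7.01% of the genes tested that way. With the replicate number as a block, 7 were called higher, Vcam1 being the addition, and 1 lower, against 15.4% and 14.9% of all genes (30.3% in either direction, and 15.8% without the block). Without both libraries numbered 3, these 7 were called higher and Alcam lower, against 22.6% and 20.4% of all genes tested. Called at a fold of at least 2 were Icam1, Madcam1, Selp, Sele and Cd47, as were 5.02% of all genes tested.

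**Figure D1:**
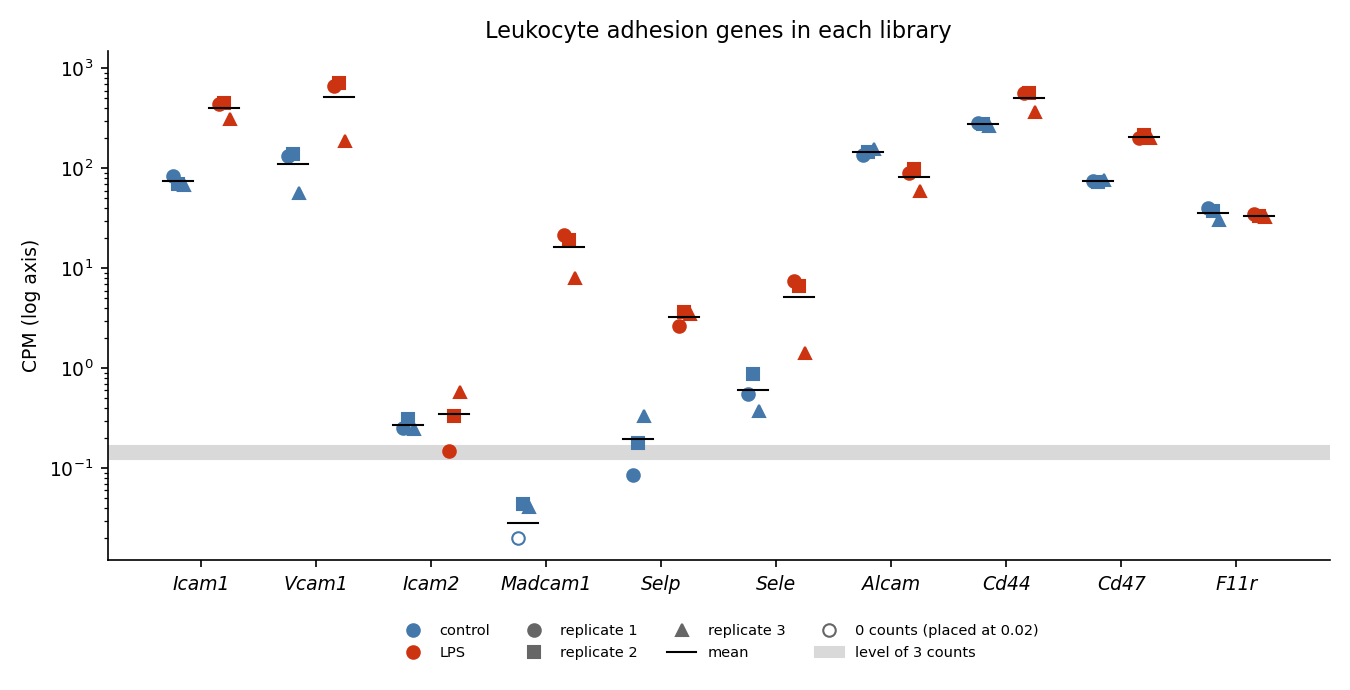
CPM of each adhesion gene on a log axis in the 3 control (blue) and 3 LPS (red) libraries, with the replicate number as the symbol shape, the mean as a black line and the range of the level of 3 counts in grey. Madcam1 and Selp lie near or under the floor in the controls and above it in LPS, Sele lies above it in all libraries and higher in LPS, Icam1, Vcam1, Cd44 and Cd47 lie well above it in both groups, and Icam2 lies near it in both.

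Of Icam1 and Vcam1, the more abundant integrin ligands, Icam1 was called and Vcam1 was not. Icam1 (ENSMUSG00000037405, chromosome 9, 21015985 to 21028817, GRCm38, plus strand) encodes the ligand of the integrins made by Itgal or Itgam with Itgb2. Its level was 84.5, 69.1 and 68.4 CPM in the controls, by replicate number, and 442, 451 and 310.5 CPM in LPS replicates 1, 2 and 3. All LPS libraries lay well above all controls, with LPS replicate 3 the lowest of them. The means were 74.0 ± 9.10 and 401.0 ± 78.5 CPM (SD, n = 3 each), which is a log2 fold change of 2.44 (SE 0.18, edgeR adjusted p = 0.00135). Between libraries of the same number the fold ranged from 4.54 to 6.52, and the call held in all 16 alternatives, with edgeR adjusted p-values up to 0.0168 when one library was left out.

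Vcam1 (ENSMUSG00000027962, chromosome 3, 116109949 to 116129688, minus strand) encodes the ligand of the integrin made by Itga4 and Itgb1. Its control values were 131.4, 140.1 and 56.7 CPM and its LPS values 661, 715 and 188 CPM in replicates 1, 2 and 3. The groups did not overlap, which was so, with LPS higher, for 19.3% of all tested genes, but replicate 3 was the lowest library in each group, well apart from the others. The means were 109.4 ± 45.8 and 521 ± 290 CPM (SD, n = 3 each). The log2 fold change of 2.25 (SE 0.60) was not called, with an edgeR adjusted p of 0.0555. Compared within the same replicate number the fold was 5.03, 5.10 and 3.31, and with the replicate block the log2 fold change was 2.14 (SE 0.15, edgeR adjusted p = 0.00232). Without LPS replicate 3 the edgeR adjusted p was 0.0111, and without any one of the others it lay between 0.103 and 0.165. Without both libraries numbered 3 the edgeR adjusted p was 2e-06 at a log2 fold change of 2.36. DESeq2 (adjusted p = 0.000566) and the edgeR exact test (adjusted p = 0.00227), on all 6 libraries, also called Vcam1. Both made many false calls on simulated counts. Those counts held no shift shared by libraries of the same number, so they cannot judge these calls of Vcam1.

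Icam2 and Madcam1, related ligands known mainly from endothelium, behaved unlike each other. Icam2 (ENSMUSG00000001029, chromosome 11, 106377656 to 106388075, minus strand) had 6, 7 and 6 counts in the controls and 3, 6 and 11 counts in LPS replicates 1, 2 and 3, and it did not pass the filter. The groups overlapped. When no filter was applied its log2 fold change was 0.35 (SE 0.55, edgeR adjusted p = 0.739).

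Madcam1 (ENSMUSG00000020310, chromosome 10, 79664559 to 79668537, plus strand) encodes the mucosal addressin, the gut vessel ligand of the integrin made by Itga4 and Itgb7. The controls held 0, 1 and 1 counts of it, and LPS replicates 1, 2 and 3 held 432, 343 and 154, that is 21.4, 19.1 and 8.06 CPM. The controls were under the floor and each LPS library was far above it. Against the floor of 3 counts per control library, the mean of 16.2 ± 7.12 CPM (SD, n = 3) was at least 126.4-fold higher, with an edgeR adjusted p of 0.00169. The call held in each of the 15 alternatives in which Madcam1 could be tested, which leaves out the filter of 10 counts in every library. With controls at 0 or 1 counts, passing the main filter already implied a difference. Without a library, the edgeR adjusted p was at most 0.0188.

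Both selectin genes were called higher from a low base. Selp (ENSMUSG00000026580, chromosome 1, 164115264 to 164150026, plus strand), which encodes the P-selectin of endothelium and platelets, had 2, 4 and 8 counts in the controls and 54, 65 and 66 counts in LPS replicates 1, 2 and 3. The groups did not overlap, and LPS replicate 3 was not low here. The means were 0.198 ± 0.124 and 3.25 ± 0.509 CPM (SD, n = 3 each), which is a log2 fold change of 3.99 (SE 0.45, edgeR adjusted p = 0.00478), and the edgeR adjusted p reached 0.0443 without control replicate 2. Without control replicate 3 the log2 fold change was 4.59, and the folds between libraries of the same number ran from 10.45 to 31.49. The highest of these is over control replicate 1, whose 2 counts lie under the floor of 3 counts, so its size is uncertain. Sele (ENSMUSG00000026582, chromosome 1, 164048234 to 164057677, plus strand), the gene of E-selectin, had 13, 20 and 9 counts in the controls and 152, 119 and 27 counts in LPS replicates 1, 2 and 3. Here LPS replicate 3, at 1.41 CPM, was much nearer to the controls (0.372 to 0.885 CPM) than LPS replicates 1 and 2 at 7.51 and 6.63 CPM. The log2 fold change of Sele was 3.10 (SE 0.71, edgeR adjusted p = 0.0381). That call was lost without control replicate 1, 2 or 3 or LPS replicate 1 or 2 (edgeR adjusted p at most 0.132), and with limma-voom (adjusted p = 0.0993). With the replicate block the edgeR adjusted p of Sele was 0.00964. The 10 endothelial markers summed to 44.1 to 77.9 CPM in the controls and 23.6 to 33.5 CPM in LPS, a separation carried by Vwf: the other 9 summed to 27.6, 25.8 and 21.3 CPM in the controls and 16.1, 17.0 and 24.6 CPM in LPS replicates 1, 2 and 3, and overlapped. Of the 7 markers tested, Vwf was the one called, and it was lower (33.1 ± 21.0 against 8.67 ± 1.13 CPM, SD, n = 3 each). Pecam1 was at 1.50 ± 1.36 CPM in the controls and 2.96 ± 2.75 CPM in LPS, and Cdh5 at 0.407 ± 0.228 and 1.44 ± 1.25 CPM (SD, n = 3 each). Neither was called without the replicate block, and both were called higher with it (edgeR adjusted p = 0.0246 and 0.0306). The remaining 4 tested, Kdr (-0.47), Emcn (-0.90), Egfl7 (-0.65) and Erg (-0.69), had negative log2 fold changes that did not pass the test, and the median of the 7 was -0.65. Of the 5 platelet markers, Gp9 did not exceed the floor in any library, and none of the 3 tested was called. The part of either cell type in the selectin result was not tested.

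The DNA just upstream of the RefSeq starts of these genes was searched for short motifs in every gene with a window. The windows that held a κB match are shown. RefSeq starts on GRCm38.p6 gave a window for 8 of the 10 genes, all except Vcam1 and Icam2, and the 250 bases before the start are shown for Icam1 (chr9:21015690-21015939), Madcam1 (chr10:79664309-79664558), Selp (chr1:164115014-164115263) and Sele (chr1:164047984-164048233), all on the plus strand. Capitals mark matches to GGNNNTTCC, a short form of the κB site, on either strand.
Icam1: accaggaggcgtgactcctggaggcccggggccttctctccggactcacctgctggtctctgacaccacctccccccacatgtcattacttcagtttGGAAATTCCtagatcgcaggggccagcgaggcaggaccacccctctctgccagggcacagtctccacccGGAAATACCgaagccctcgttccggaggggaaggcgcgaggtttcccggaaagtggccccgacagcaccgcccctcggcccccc
Madcam1: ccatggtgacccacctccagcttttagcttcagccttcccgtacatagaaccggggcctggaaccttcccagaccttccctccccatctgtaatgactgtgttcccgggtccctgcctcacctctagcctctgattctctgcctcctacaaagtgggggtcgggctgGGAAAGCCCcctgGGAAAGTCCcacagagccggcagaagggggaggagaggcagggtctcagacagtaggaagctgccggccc
Selp: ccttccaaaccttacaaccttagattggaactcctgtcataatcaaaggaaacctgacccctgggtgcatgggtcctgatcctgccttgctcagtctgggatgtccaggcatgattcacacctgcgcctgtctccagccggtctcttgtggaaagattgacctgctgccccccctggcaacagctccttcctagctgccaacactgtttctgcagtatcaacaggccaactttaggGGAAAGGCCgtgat
Sele: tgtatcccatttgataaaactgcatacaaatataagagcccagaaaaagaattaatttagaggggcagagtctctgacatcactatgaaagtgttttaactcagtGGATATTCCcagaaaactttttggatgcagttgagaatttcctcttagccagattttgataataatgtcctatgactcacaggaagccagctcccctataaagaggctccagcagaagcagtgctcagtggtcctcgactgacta

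These 4 windows held the GGNNNTTCC letters and those of Alcam, Cd44, Cd47 and F11r did not, where 15.7% of 32841 windows of the same length did. The windows of Cd47 (chromosome 16, from 49855404 and 49855411) and Alcam (chromosome 16, 52453082 to 52453331) lie inside the gene coordinates given here. That of F11r (chromosome 1, 171437311 to 171437560) runs across the gene start. For Cd47 and Alcam the DNA before the first annotated base was thus not searched. Cd44 and Cd47, whose windows hold no match, were also called higher. The Icam1 match GGAAATTCC lies 153 to 145 bases before the start and reads as a match on both strands, and a further match on the minus strand lies 84 to 76 bases before it. Madcam1 holds a pair of matches on the minus strand, 83 to 75 and 70 to 62 bases before the start, each of which also fits the longer κB consensus, found in 7.25% of windows. The single Selp match lies 14 to 6 bases before the start, and the Sele match lies 145 to 137 bases before it and overlaps by 4 bases a match to TTCNNNGAA, the GAS site of STAT factors. Sele also holds an AP-1 site, TGANTCA, as do Selp and F11r (6.75% of windows), and is the one window with TATAAA (12.4%). Icam1 and Sele hold TTCNNNGAA (7.02%), and none of the 8 windows holds the core of the interferon-stimulated response element, searched as GAAA, 2 bases of any kind and GAAA (2.98%). A match describes letters and is no evidence that a factor binds there.

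The remaining genes are broadly expressed. Cd47 (ENSMUSG00000055447, chromosome 16, 49800533 to 49915010, plus strand) gave the steadiest values of all, at 74.5, 73.1 and 76.4 CPM in the controls and 199.4, 213.6 and 201.5 CPM in LPS replicates 1, 2 and 3. The libraries numbered 3 did not stand apart for this gene. Its means of 74.7 ± 1.67 and 204.8 ± 7.66 CPM (SD, n = 3 each) correspond to coefficients of variation of 2.24% and 3.74%, and its log2 fold change was 1.46 (SE 0.07, edgeR adjusted p = 0.00026). The call held in all 16 alternatives, in which the log2 fold change ran from 1.30 to 1.51.

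Cd44 (ENSMUSG00000005087, chromosome 2, 102811141 to 102901665, minus strand), the receptor of the matrix sugar hyaluronan, was at 286.8, 275.8 and 263.9 CPM in the controls and at 566, 571 and 364.8 CPM in LPS replicates 1, 2 and 3. All LPS libraries were above all controls, but LPS replicate 3 rose only 1.38-fold over control replicate 3, against 1.97 and 2.07-fold for replicates 1 and 2. The log2 fold change was 0.86 (SE 0.19, edgeR adjusted p = 0.0327). The call was lost without any one library other than LPS replicate 3 (edgeR adjusted p up to 0.132, without control replicate 2), and also with upper-quartile factors (0.0561) and library size alone (0.06).

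Alcam (ENSMUSG00000022636, chromosome 16, 52248996 to 52454074, minus strand), which encodes a ligand of the T cell protein CD6, was the one gene called lower. It was at 137.5, 144.5 and 157.5 CPM in the controls and at 89.4, 97.6 and 59.7 CPM in LPS replicates 1, 2 and 3, a log2 fold change of -0.83 (SE 0.19, edgeR adjusted p = 0.038). The groups did not overlap, which with LPS lower was so for 19.4% of all tested genes, and LPS replicate 3 was the lowest library. The call was lost without any one library other than LPS replicate 3 (edgeR adjusted p up to 0.137, without control replicate 2). Without both libraries numbered 3 the log2 fold change was -0.57 (edgeR adjusted p = 0.000799).

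F11r (ENSMUSG00000038235, chromosome 1, 171437535 to 171464603, plus strand), the gene of junctional adhesion molecule A, was at 40.0, 37.1 and 30.5 CPM in the controls and at 35.3, 33.2 and 32.2 CPM in LPS replicates 1, 2 and 3. The groups overlapped. Its log2 fold change was -0.10 (SE 0.12, edgeR adjusted p = 0.636), and no alternative called it.

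**Figure D2:**
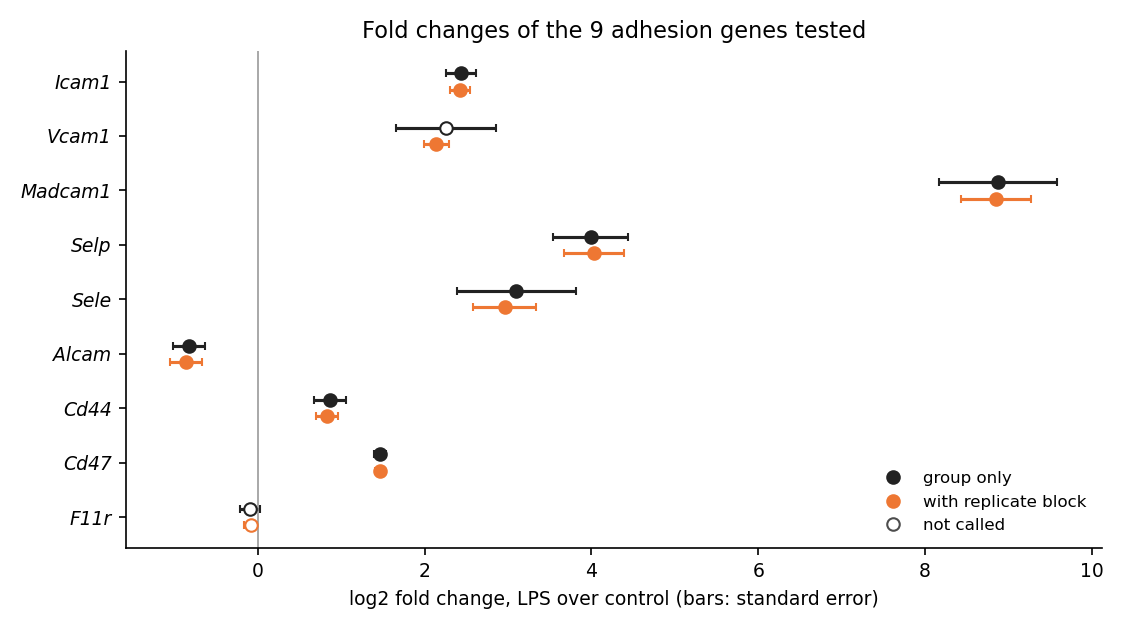
Log2 fold change of LPS over control for the 9 adhesion genes tested, with standard errors as bars, fitted on the group alone (black) and with the replicate number as a block (orange), where filled points passed an adjusted p of 0.05. The estimates barely move between the fits, and for Vcam1 the standard error falls from 0.60 to 0.15.

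Ratios within a library, which do not depend on scaling, were compared next (3 ratios, exact permutation test, two-sided, smallest possible p = 0.1). The log2 ratio of Icam1 to Icam2 counts (with 0.5 counts added) was 8.26, 7.70 and 7.99 in the controls, by replicate number, and 11.32, 10.28 and 9.01 in LPS. It was higher in every LPS library by a mean of 2.22, at the smallest p the exact test allows, and by 1.66 without LPS replicate 1 and 2.81 without LPS replicate 3. Icam2 had 3 to 11 counts in LPS, so its counting error enters this ratio. The log2 ratio of Vcam1 to Cd44 was -1.13, -0.98 and -2.22 in the controls and 0.22, 0.32 and -0.96 in LPS replicates 1, 2 and 3. It was thus higher in LPS at each replicate number and, in all 3 LPS libraries, higher than in any control (mean difference 1.30, exact permutation p = 0.1). The log2 ratio of Icam1 to Vcam1 was -0.64, -1.02 and 0.27 in the controls and -0.58, -0.66 and 0.72 in LPS replicates 1, 2 and 3. At each replicate number it was higher in LPS, but it overlapped between the groups. The mean difference of 0.29 fell to -0.16 without LPS replicate 3 (exact permutation p = 0.6 with all libraries, a test that ignores replicate numbers). In each group replicate 3 was the one library with more Icam1 than Vcam1 counts.

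Levels of different genes can be compared per kilobase of annotated exon. In the controls Cd44 led at 40.7 ± 1.69 CPM per kilobase, followed by Alcam at 20.6 ± 1.43 and Icam1 at 17 ± 2.09 (SD, n = 3 each). F11r, Vcam1 and Cd47 lay close together at 13.5 ± 1.84, 12.3 ± 5.17 and 11.9 ± 0.266 CPM per kilobase, with overlapping ranges. Sele, Icam2, Selp and Madcam1 were far lower, at 0.207 CPM per kilobase or less. In LPS the order changed. Icam1 led at 92.0 ± 18.0, then Cd44 at 73.9 ± 17.4 and Vcam1 at 58.8 ± 32.7 CPM per kilobase, and Cd47 followed at 32.6 ± 1.22, with the library ranges of neighbours in this order overlapping. F11r, Alcam and Madcam1 came next, with overlapping ranges, at 12.6 ± 0.586, 11.6 ± 2.80 and 11.3 ± 4.95 CPM per kilobase. Madcam1, the lowest of the 10 genes at rest, thus reached the per-kilobase level that F11r and Alcam had in LPS. Not divided by length, Madcam1 in LPS was at 16.2 CPM, against 33.6 CPM for F11r and 82.25 CPM for Alcam. Sele (1.78 ± 1.13), Selp (0.736 ± 0.115) and Icam2 (0.185 ± 0.113) stayed lowest. In plain CPM, with no division by length, the order differed: Vcam1 led in LPS (521 CPM), ahead of Cd44 (500.6 CPM) and Icam1 (401.0 CPM), and in the controls Vcam1 ranked 3 and Icam1 5. The exon length is that of all annotated isoforms together, so a gene with long rare exons is placed too low.

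**Figure D3:**
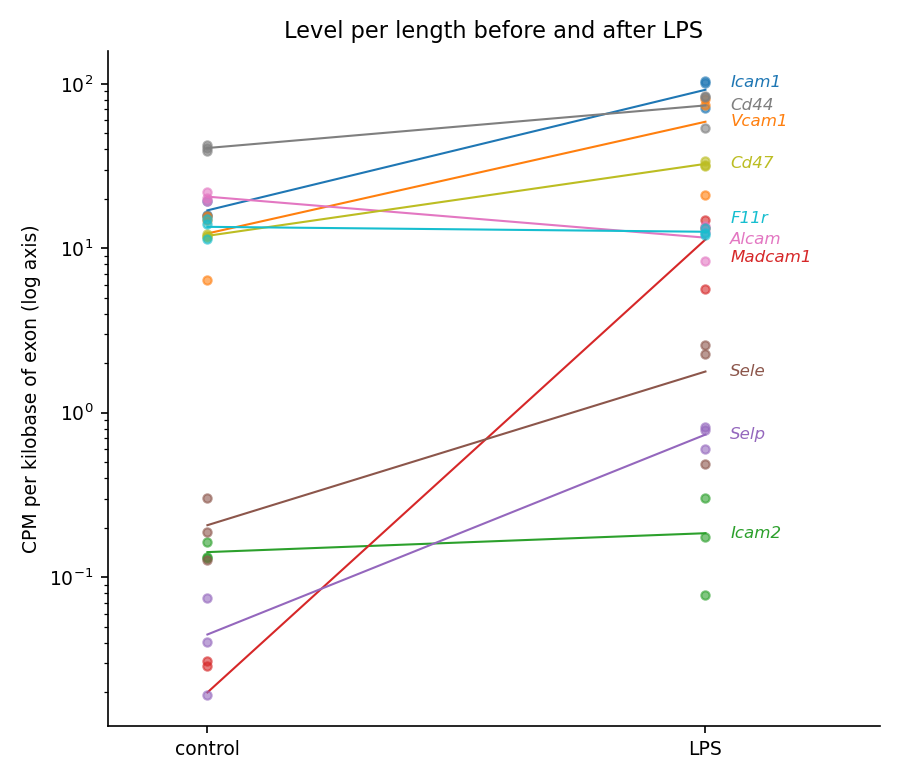
Level of each gene in CPM per kilobase of exon on a log axis, with points for the libraries and lines joining the group means. Icam1 passes Cd44 to the top, and Madcam1 climbs from the bottom to the level of Alcam and F11r (the control library with 0 counts of Madcam1 is not drawn).

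The libraries numbered 3, which held the most macrophage marker RNA, were compared gene by gene with their group. Among the controls Icam1, Vcam1, Icam2, Sele, Cd44 and F11r were lowest there, and Selp, Alcam and Cd47 were highest. Some of these differences were slight, such as Icam1 at 68.4 CPM there against 69.1 CPM in control replicate 2. Icam2 had 6 counts in each of control replicates 1 and 3. Among the LPS libraries Icam1, Vcam1, Madcam1, Sele, Cd44, Alcam and F11r were lowest in replicate 3, and Icam2 was highest. Summed over the 10 genes, the level was 654.4 to 755.6 CPM in the controls, and 2024 and 2111 CPM in LPS replicates 1 and 2 against 1170.0 CPM in LPS replicate 3. The part of the macrophage RNA in these differences was not tested.

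**Figure D4:**
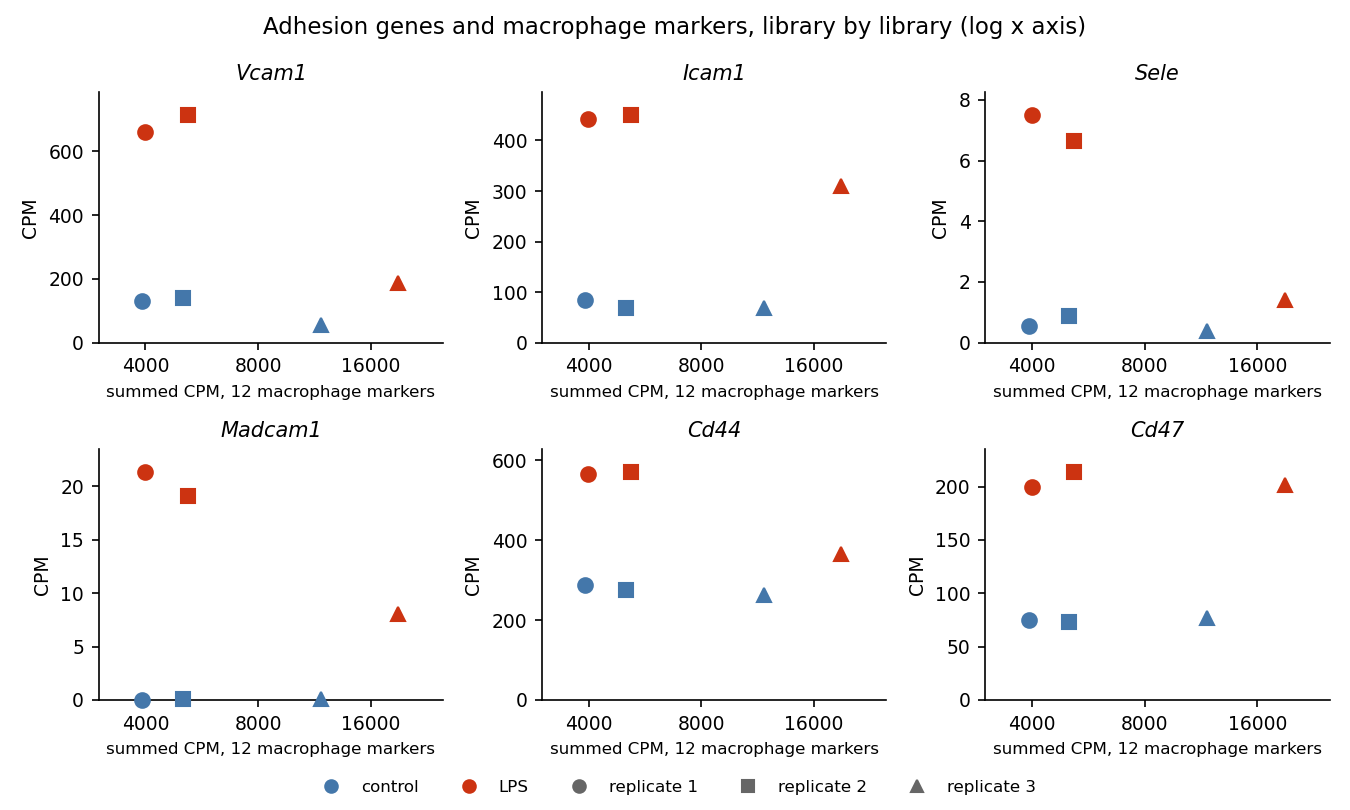
CPM of 6 adhesion genes against the summed CPM of 12 macrophage markers (log x axis) in each library, control in blue and LPS in red, with the replicate number as the symbol shape. The triangles, replicate 3, lie to the right in both groups. Vcam1, Sele and Madcam1 are low there among the LPS libraries and Cd47 is not.

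The partners of these molecules and the enzymes around them were examined in 5 lists of 62 genes, of which 61 were in the files and 48 were tested. In these, 9 genes were called higher and 1 lower, against 9.09% and 6.71% of all tested genes, which is the share to set beside each list below. Leaving out control replicate 2 left 2 called higher, control replicate 1 or either LPS replicate 1 or 2 left 3, and with the replicate block there were 16 higher and 5 lower, against 15.4% and 14.9% of all genes.

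Of the 16 integrins and other receptors that bind the adhesion molecules, 11 were tested and 1 was called, with a median log2 fold change of 0.26 (-0.19 without LPS replicate 3). That gene was Itgal, the leukocyte integrin chain that pairs with Itgb2 to bind Icam1 and Icam2. It was at 0.636, 0.885 and 8.22 CPM in the controls and at 70.4, 122.0 and 314.9 CPM in LPS replicates 1, 2 and 3, a log2 fold change of 5.69 (SE 1.20, edgeR adjusted p = 0.031). All LPS libraries were above all controls, and in contrast to Icam1 the highest library of each group was replicate 3. The call was lost without control replicate 1 or 2 or LPS replicate 1 or 2 (edgeR adjusted p up to 0.121), and the log2 fold change itself ran from 4.87 without LPS replicate 3 to 7.80 without control replicate 3. With the replicate block the edgeR adjusted p was 0.0019. Its partner chain Itgb2 was at 146.9 ± 74.7 and 213.4 ± 133.7 CPM and was not called, but was called with the block (log2 fold change 0.48, edgeR adjusted p = 0.0211). Itgax, another chain that pairs with Itgb2, was at 5.14 ± 4.51 and 1.25 ± 1.00 CPM (SD, n = 3 each) and was not called, and the block called it lower (log2 fold change -1.96, edgeR adjusted p = 0.0107). The chains that bind Vcam1 were not called, Itga4 with a log2 fold change of 0.02 (SE 0.40) and Itgb1 with -0.02 (SE 0.14). Itgb7, which completes the Madcam1 receptor, had too few counts to be tested. Sirpa, the macrophage receptor of CD47, was at 749.2 ± 425.7 and 667.8 ± 467.4 CPM (SD, n = 3 each) and was not called.

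Among 13 tested genes of other endothelial and junctional adhesion molecules, 2 were called higher and 0 lower, with a median of 0.42. They were Pvr and Nectin2, a related pair of nectin-type receptors bound by lymphocyte proteins, at log2 fold changes of 1.12 (SE 0.21, edgeR adjusted p = 0.0209) and 0.63 (SE 0.15, edgeR adjusted p = 0.0449). Both calls were lost without control replicate 1 or 2 or LPS replicate 1 or 2, and that of Nectin2 also without control replicate 3 and under 4 other settings. The edgeR adjusted p rose to 0.104 for Pvr and 0.157 for Nectin2. The block called 5 genes of this list higher.

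Around hyaluronan, the ligand of CD44, 3 of 8 tested genes were called higher and 1 lower (median 0.28, or -0.05 with at least 10 counts in every library). Cemip2, which degrades hyaluronan at the cell surface, went from 49.9 ± 1.56 to 102.5 ± 12.9 CPM (SD, n = 3 each), and the log2 fold change of 1.04 held without any one library (edgeR adjusted p = 0.0035 with all of them). Tnfaip6, which binds and crosslinks hyaluronan, rose by 1.88 on the log2 scale and Ugdh, which makes a hyaluronan precursor, by 0.67, and the lysosomal hyaluronidase gene Hyal1 fell by 1.17 on the log2 scale, with edgeR adjusted p-values of 0.0358, 0.0197 and 0.00866. The calls for Tnfaip6 and Ugdh were lost without control replicate 1 or 2 or LPS replicate 1 or 2, and that of Tnfaip6 also without control replicate 3 (edgeR adjusted p up to 0.12 and 0.104). The synthase Has2, at a log2 fold change of 0.62, was not called (edgeR adjusted p = 0.0927).

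Of 6 tested genes that build selectin ligands, 0 were called with edgeR or limma-voom, while 2 (Chst2 and St3gal4) had an unadjusted p under 0.05, DESeq2 and the edgeR exact test each called 1 higher, and the block called 2 higher and 1 lower. Without LPS replicate 3, edgeR called 1 higher and 2 lower. Their median log2 fold change was -0.08, and it lay just above 0 when control replicate 1 (0.01), control replicate 2 (0.02) or, separately, LPS replicate 2 (0.03) was left out. The shedding and membrane linkage list had 3 of 10 called higher and 0 lower (median 0.06, or -0.05 on upper-quartile and -0.10 on plain library size scaling), and DESeq2 called 2 of them lower and limma-voom 1. Adam17, a protease that sheds adhesion molecules from the surface, went from 132.0 ± 21.1 to 276.3 ± 34.9 CPM (SD, n = 3 each), which is a log2 fold change of 1.07 (SE 0.15, edgeR adjusted p = 0.0104, or 0.0659 without control replicate 2). For the related Adam10 the log2 fold change was -0.39, just short of a call (edgeR adjusted p = 0.0504), and with the block it was called lower (-0.40, edgeR adjusted p = 0.0138). Mmp9, a secreted gelatinase that can cleave ICAM-1 and CD44, was at 10.2, 9.52 and 10.3 CPM in the controls and at 875, 851 and 301.4 CPM in LPS replicates 1, 2 and 3 (log2 fold change 6.07, SE 0.49, edgeR adjusted p = 0.00176). Msn, whose product moesin ties CD44 and ICAM-1 to actin, had a log2 fold change of 0.43 (edgeR adjusted p = 0.0383), a call lost without control replicate 1 or 2 or LPS replicate 1 or 2 (up to 0.165) and under 4 other settings.

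**Figure D5:**
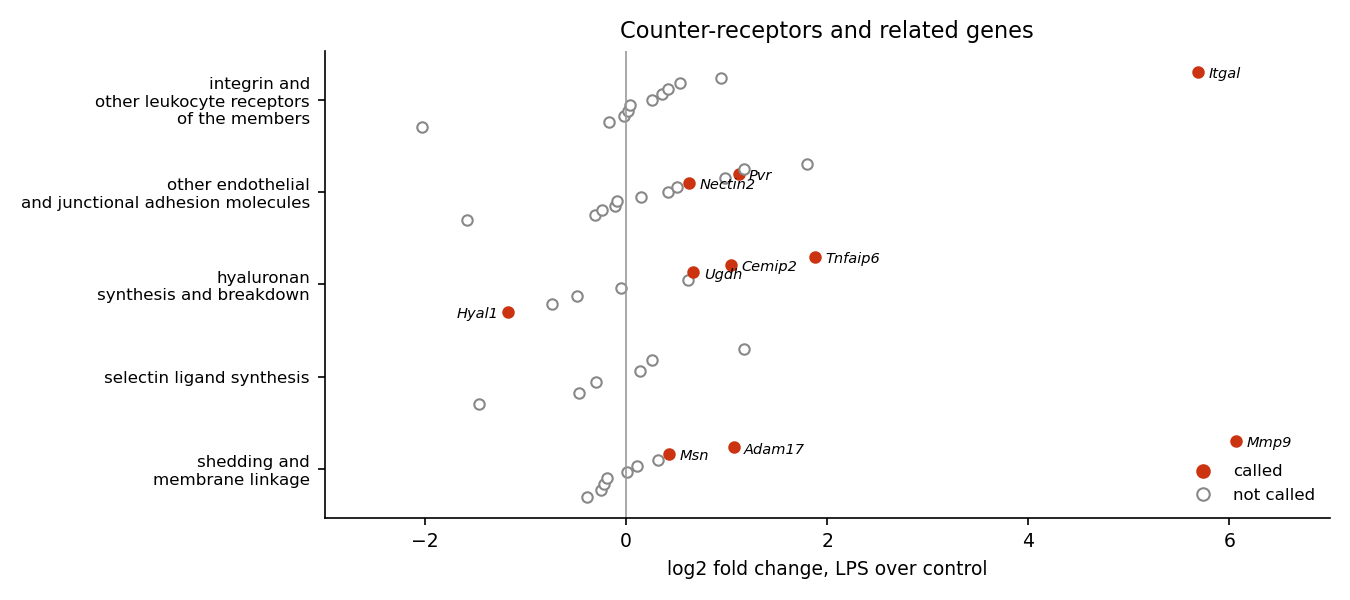
Log2 fold change of LPS over control for the 48 tested genes of the 5 lists of binding partners and related genes, one point per gene, filled red and named where called. Itgal and Mmp9 lie far to the right of the other genes, and Hyal1 is the one gene called lower.

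Genes whose log2 CPM followed Icam1 and Vcam1 most closely over the 6 libraries were sought among 10342 genes that averaged 10 CPM or more in control or LPS. For Icam1 they were Cxcl9, Ptpn2, Ccl2, E2f5 and C3, with Pearson r from 0.9976 to 0.9990, which is mainly a match to the group difference. For Vcam1 they were Exoc3l4, Sec24d, Kdm5b, Cast and Htr2a, with r from 0.9967 to 0.9993. In each of these replicate 3 was the lowest library of both groups, as in Vcam1, and their log2 fold changes ran from 0.22 for Cast to 2.35 for Htr2a. With 6 libraries in 2 groups these values describe the pattern only.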

How the data were processed

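Reads were trimmed by the authors, per the labels, with cutadapt 1.15, filtered, cleared of contaminants with Bowtie2 2.3.3.1 and mapped to GRCm38, and the authors deposited raw counts per gene for each library. The submitters' processing notes also name STAR 2.5.2b, SAMtools 1.5 and featureCounts 1.5.3. The library kit keeps strand, but the strand setting of the counting is not given in the sources used here. Antisense genes overlapping exons of Vcam1 and Selp had at most 2 counts in any library, and the one overlapping Icam1 was not analysed here. The combined table of all libraries was not used, and columns from no known sample numbered 0. Coordinates and exon lengths come from GENCODE M21 (GRCm38), and upstream sequences from RefSeq (GRCm38.p6).

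Genes were filtered with filterByExpr (minimum count 10, minimum total 15). LPS and control were compared with the two-sided quasi-likelihood F-test of edgeR 4.0.16 (R 4.3.3), with the group as the single term, TMM factors and Benjamini-Hochberg adjustment over 15226 genes. The standard error (SE) is the absolute log2 fold change over the root of F. On simulated counts the false share of calls stayed under the threshold for this test, was slightly above it for limma-voom and the replicate block, and was far above it for DESeq2 and the edgeR exact test. The simulated libraries varied independently, with no shift shared by libraries of the same number. The simulation therefore cannot judge the tests where such a shift matters, as for Vcam1. Alternatives, 16 in all, were other scaling factors, other filters, DESeq2 1.42.0, the edgeR exact test, limma-voom (limma 3.58.1), the replicate block, each library left out, and the pair of libraries numbered 3 left out, the last chosen after seeing the data.

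To see whether replicate numbers pair the libraries, each library's deviation from its group mean was correlated across genes with that of the same number in the other group, which gave r = 0.513, 0.334 and 0.613 for numbers 1, 2 and 3. The labels give no meaning to the numbers, so this pairing comes from the data. Control 1 with LPS 2 gave 0.419 and control 2 with LPS 1 gave 0.323, so the data set number 3 apart and hardly tell 1 from 2. The adhesion genes, gene lists, motifs and tests were chosen with earlier results of these data known. All adhesion genes and the genes of the 5 partner lists could be named, and the 5 genes most correlated with Icam1 and with Vcam1 (log2 CPM, prior count 2).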

Additional observations from a re-analysis of the deposited data

How the results depend on the processing

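Of 141 values of the adhesion genes under the alternatives, 118 kept their direction and side of the threshold, 18 lost a call (Sele, Cd44 and Alcam), 5 gained one (Vcam1) and 0 changed direction. Adhesion genes called higher numbered 3 with at least 10 counts in every library, a filter that removes Madcam1, Selp and Sele from the test, and from 4 to 7 without one library. Those called lower numbered from 0 to 1 without one library, 1 only without LPS replicate 3. Over all genes, DESeq2 called 2079 higher and 1673 lower, the replicate block 2343 and 2273, and the fit without both libraries numbered 3 called 3498 and 3159. Upper-quartile factors gave 1589 lower and library size alone 2054, since scaling moved the median of all genes. Leaving out one library gave 379 to 1964 higher and 112 to 1426 lower calls, the fewest without control replicate 2 and the most without LPS replicate 3. In the partner lists the replicate block called 16 higher and 5 lower, and the fit without both libraries numbered 3 called 16 and 7. Lower calls there numbered 3 with upper-quartile factors, 4 with library size alone, 2 with at least 10 counts in every library, 3 with DESeq2 and 2 with limma-voom. Without one library they numbered from 2 to 11 higher and from 1 to 5 lower. The replicate block changed no call of an adhesion gene other than Vcam1.

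The mean difference of the log2 ratio of Icam1 to Vcam1 ran from -0.16 to 0.65 without one library. List medians changed sign for the receptors without LPS replicate 3 (-0.19, highest 0.64 without one library), for hyaluronan genes with at least 10 counts in every library (-0.05), for shedding and linkage with upper-quartile factors (-0.05) and library size alone (-0.10), and for selectin ligand synthesis when control replicate 1 (0.01), control replicate 2 (0.02) or LPS replicate 2 (0.03) was left out (lowest -0.22 without one library). Without division by length, 4 of the 10 ranks by level changed in the controls and 4 in LPS. Apart from the scaling and the filter, the cause was not tested. Counting precision was lowest for Icam2, at 3 to 11 counts per library, and the controls of Madcam1 and Selp, at 0 to 8.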

Other observations

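Some partner genes had too few counts for the test, and their levels are given here. Cd6, the receptor of ALCAM, was at 0 to 0.165 CPM in the controls and at 0.395, 0.279 and 0.314 CPM in LPS replicates 1, 2 and 3. Has1, a hyaluronan synthase, was at 0 to 0.413 CPM in the controls and at 0.346, 0.947 and 1.99 CPM in LPS. Has1 overlapped between the groups and Cd6 did not. These values were chosen after they were seen and carry no test.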
